A study of Mus musculus with 35 samples.

Results

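The glucocorticoid receptor gene Nr3c1 and 5 genes known to be induced through it, Tsc22d3, Fkbp5, Ddit4, Sgk1 and Errfi1, were followed in microglia sorted from whole spinal cord on CD11b and CD45. These 6 of the 45706 genes in the deposited tables were chosen by name, and the set was selected on a fall of Tsc22d3 in late disease. All 6 passed the filter on low counts, among 13501 tested genes. Differences between late disease and control are therefore given for these 6 genes as descriptions, without a test.

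The mice were rNLS8 animals and their wild-type (WT) littermates, on a mixed C57BL/6J X C3HeJ F1 background. rNLS8 mice carry NEFH-tTa, which makes a doxycycline-repressed activator, and tetO-hTDP43, which that activator switches on to make a human TDP-43 lacking its nuclear localisation signal. The NEFH promoter is active in neurons and not in microglia. All mice received doxycycline in the diet up to 8 to 12 weeks of age, when it was withdrawn from all but 6 rNLS8 controls. Early disease (7 libraries) was rNLS8 at 2 weeks off doxycycline, late disease (7) rNLS8 at 6 weeks off, and recovery (7) rNLS8 at 6 weeks off followed by 1 week back on. Among the 14 controls, 6 were rNLS8 and never left doxycycline, and 8 were WT: 4 taken at 2 weeks off, 1 at 6 weeks off, and 3 at 6 weeks off and 1 week back on. The label of each library describes 1 mouse, and p-values measure the spread between these libraries.

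The glucocorticoid receptor is a transcription factor held in the cytoplasm by heat shock protein chaperones until it binds corticosterone, the main glucocorticoid of mice. It then enters the nucleus, binds paired TGTTCT-like hexamers, raises some genes and restrains many inflammatory ones. Microglia express it, and glucocorticoids are known to dampen their cytokine production. Tsc22d3 encodes GILZ, a leucine zipper protein that binds and restrains NF-kB and AP-1. Fkbp5 encodes FKBP51, a co-chaperone that lowers the receptor's affinity for hormone and so closes a feedback loop. Ddit4 encodes REDD1, an inhibitor of mTORC1. Sgk1 encodes a serum- and glucocorticoid-regulated kinase. Errfi1 encodes MIG6, an inhibitor of the EGF receptor.

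The sequences before the starts of 3 of these genes show where the receptor's letters do and do not lie close to a start. RefSeq start windows were on hand for 5 of the 6 genes, 13 windows in all (build GRCm38.p6, 250 bases before each start). Searched on both strands, the palindrome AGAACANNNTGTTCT occurred in 1 of the 13 windows, at a start of Sgk1, and in 0.00913% of all 32851 windows, which is 3 windows. The looser form GNACANNNTGTNC, which contains every such palindrome, was in that same 1 window of the 13 and in 0.387% of all windows. The hexamer TGTTCT alone, which also lies inside the palindrome, was in 4 of the 13 windows (3 of Sgk1 and 1 of Tsc22d3) and in 16.1% of all windows. Windows of Fkbp5, Ddit4 and Errfi1 held none of the 3 motifs, which says only that the letters are not within these bases. The sequences of Sgk1 (chr10:21993640-21993889, plus strand), Tsc22d3 (chrX:140600660-140600772, minus strand) and Ddit4 (chr10:59951835-59952020, minus strand) are shown 5′ to 3′ because Sgk1 alone had the palindrome, while Tsc22d3 and Ddit4 varied together most closely across libraries. Bases inside an annotated exon were left out. Capitals mark the palindrome in Sgk1, where it begins 189 bases before the start, and the hexamer in Tsc22d3, 185 bases before the start.
Sgk1: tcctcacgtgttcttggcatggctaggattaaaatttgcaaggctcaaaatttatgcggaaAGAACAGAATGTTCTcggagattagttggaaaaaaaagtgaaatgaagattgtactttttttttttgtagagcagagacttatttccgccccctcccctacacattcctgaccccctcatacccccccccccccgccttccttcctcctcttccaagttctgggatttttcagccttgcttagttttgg
Tsc22d3: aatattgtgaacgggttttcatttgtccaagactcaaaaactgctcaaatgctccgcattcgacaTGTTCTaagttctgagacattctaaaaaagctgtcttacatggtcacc
Ddit4: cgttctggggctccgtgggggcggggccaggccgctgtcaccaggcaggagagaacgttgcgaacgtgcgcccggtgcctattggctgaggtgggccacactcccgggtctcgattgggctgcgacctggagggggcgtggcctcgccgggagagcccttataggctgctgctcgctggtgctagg

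Levels per transcript length placed the 6 genes in order in controls. Sgk1 stood at 757 ± 161 TPM and Tsc22d3 at 350 ± 122 TPM (SD, n = 14). Nr3c1 at 93.1 ± 10.6 TPM and Fkbp5 at 92.2 ± 46.1 TPM did not differ beyond their spread. Nor did Ddit4 at 31.9 ± 26.9 TPM and Errfi1 at 27.9 ± 6.78 TPM. Relative to its mean, the receptor varied least between controls and Ddit4 most. All later levels are CPM, counts scaled to 1e6 counts of the normalised library size. The lowest count of any of these genes was 26, for Ddit4 in Control 11, and the lowest of Nr3c1 was 2269.

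Libraries held 13.9 to 20.4 M counts (M, 1e6) and 14311 to 17545 genes with a count. Of the 9 microglial markers, all had counts in every group. Their summed level was 44270 to 62284 CPM in controls and 28115 to 47989 CPM in late disease, where 4 of the 9 were called lower and 1 higher. Date codes, whose meaning the labels do not state, ran with the groups: 9 of the 14 controls had the code 0810, which no disease library had, and all 7 recovery libraries had 0803. The 9 controls of 0810 also had 13.9 to 30.8% of their TPM outside the deposited table, against 2.32 to 11.4% in the 26 other libraries. Early and late disease share the codes 1019 and 1102 with 5 WT controls. Code 1130 held 3 late and 2 early libraries and no control. Those libraries stayed in the fits against controls of shared dates, which are therefore not fully matched by date. Of the 5 WT controls, 4 were at 2 weeks off doxycycline, so late disease also differed from them in time off. Recovery and its date cannot be told apart.

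LateDisease 6 stood apart from the 6 other late libraries before any group comparison. It had the highest value of the late group for 26% of all tested genes. Its microglial marker sum of 28115 CPM lay below the 33979 to 47989 CPM of the other late libraries, with P2ry12, a microglial purine receptor, at 1709 CPM. Its monocyte marker sum of 190 CPM lay above their 34.7 to 69.8 CPM, though the monocyte markers Chil3 and Vcan were at 0 in it. Recovery 4 also stood apart for the target genes. It had the lowest neutrophil marker sum of the recovery group, 792 CPM. Many results that rest on these libraries are given with and without them, but the ranking of genes by likeness to Tsc22d3 is given only with them. The part of other cell types in their values was not tested.

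**Figure D1:**
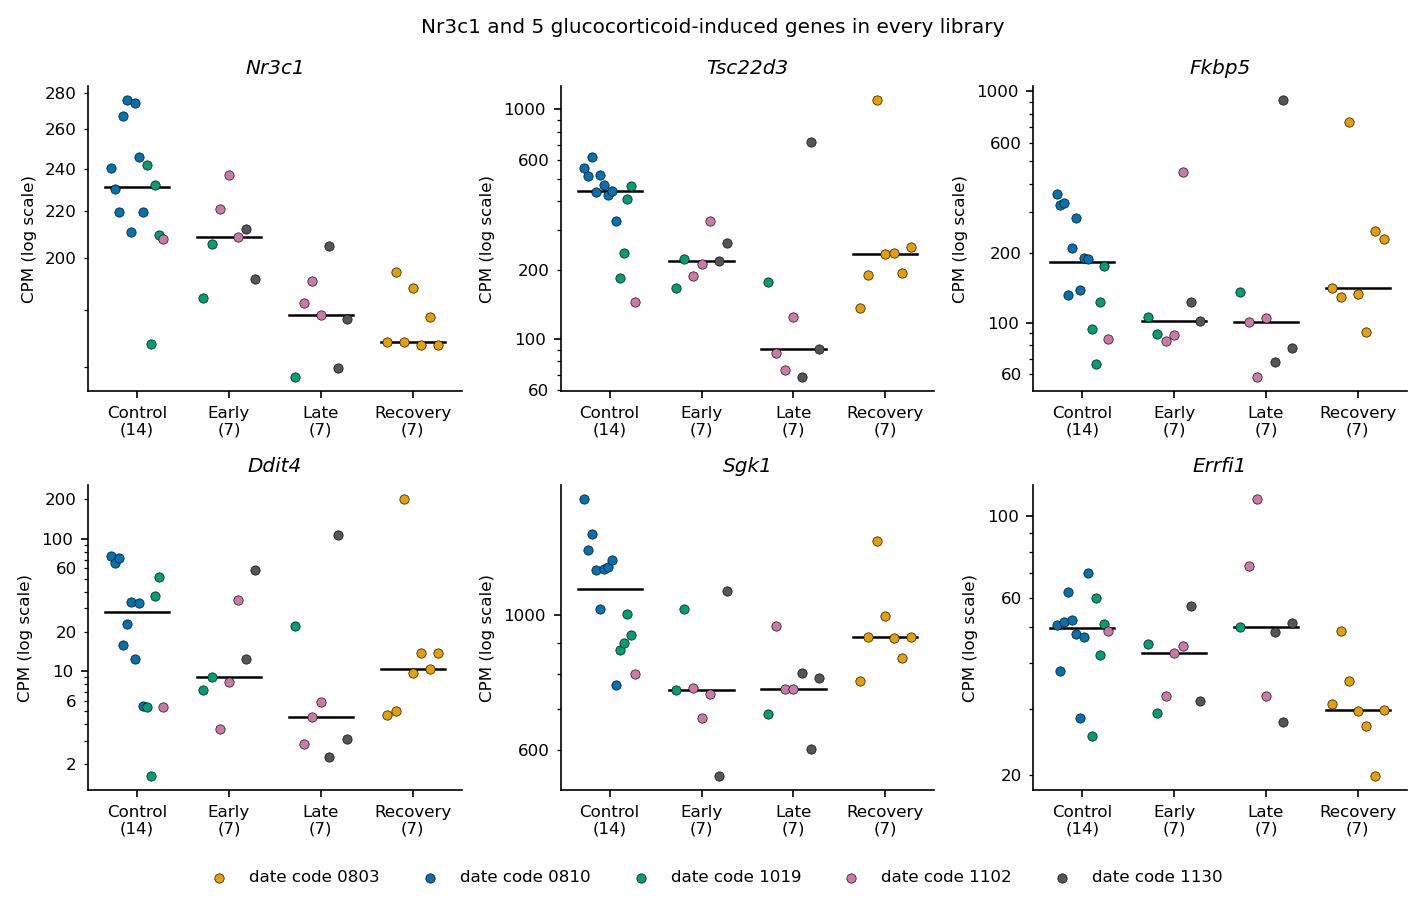
CPM on a log axis for Nr3c1, Tsc22d3, Fkbp5, Ddit4, Sgk1 and Errfi1 in each of the 35 libraries, by group, with points coloured by date code and lines at group medians. Tsc22d3, Fkbp5 and Ddit4 each have 1 late and 1 recovery library far above the rest of their group (Tsc22d3 724 and 1100 CPM), while Nr3c1 spans only 157 to 276 CPM over all libraries.

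Nr3c1, the receptor itself, was lower in recovery than in control, and it was the only 1 of the 6 genes to pass the test in any of the 5 comparisons tested. Control libraries ran from 168 to 276 CPM with a median of 231 CPM. Early disease ran from 184 to 237 CPM with a median of 209 CPM. Late disease ran from 157 to 205 CPM with a median of 178 CPM, and recovery from 168 to 194 CPM with a median of 169 CPM. All 7 recovery libraries lay below the control median, but the ranges overlapped because Control 11 was at 168 CPM. The order of the means was control (232 ± 29.6 CPM, n = 14), early (209 ± 17.5), late (178 ± 16.7) and recovery (176 ± 11.1, n = 7 each), and the last 2 did not differ beyond their spread.

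The fall of Nr3c1 in recovery was 0.39 on the log2 scale (log2 change −0.39 ± 0.08 SE, adjusted p = 0.0013, edgeR), in a comparison where 3.98% of genes were called. Recovery shares its controls with the contrast that chose the set. Leaving out any single library kept the adjusted p at or below 0.00499. Against WT controls alone the change was −0.31 (adjusted p = 0.0286) and against rNLS8 controls alone −0.50 (adjusted p = 0.000517). The call ended (−0.29, adjusted p = 0.0583) in a fit that took as a covariate each library's share of TPM outside the table. Neutrophil markers were higher in recovery in 10 of 11 tested genes, their sum running from 792 to 7681 CPM against 456 to 853 CPM in controls, and monocyte markers in 8 of 9. The library with the highest neutrophil sum, Recovery 3, had Nr3c1 at 194 CPM. Recovery 4, with the lowest sum, had 169 CPM, and the group median was also 169 CPM. A pair of libraries does not show a trend over the group. The part of those cells in the result was not tested. In bulk samples, fewer cells of a type and less RNA per cell cannot be told apart.

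Against early disease, which shares no library with the contrast that chose the set, recovery had a Nr3c1 difference of −0.25 ± 0.09 (unadjusted p = 0.00716, adjusted p = 0.21, edgeR). That missed the threshold. limma on log2(TPM + 1) called it (−0.42, adjusted p = 0.00621), on a scale where the median of all genes moved by −0.16. In early disease the difference from control was −0.15 ± 0.07 (adjusted p = 0.409). In late disease the described difference was −0.36 ± 0.08, and −0.24 against the 5 controls of shared dates.

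Tsc22d3, the gene that led to the choice of the set, was between 68.3 and 177 CPM in 6 late libraries and at 724 CPM in LateDisease 6. Its late median of 90.8 CPM compared with 439 CPM in controls, which ran from 145 to 620 CPM. The 5 lowest late libraries lay below every control, and the late range overlapped the controls through LateDisease 1 and LateDisease 6. The described late difference was −1.27 ± 0.41 on the log2 scale with all 7 libraries and −2.01 without LateDisease 6. Against the controls of shared dates, which ran from 145 to 464 CPM, it was −0.88.

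In early disease, which was not used to choose the set but shares its controls, Tsc22d3 ran from 166 to 327 CPM with a median of 218 CPM. The lowest of the 9 controls of date code 0810 was also at 327 CPM, and the other early libraries lay below it. All 7 early libraries lay within the range of the 5 other controls. Its early difference of −0.87 ± 0.39 did not pass the test (unadjusted p = 0.031, adjusted p = 0.346, edgeR), and it was −0.34 with the date code as a term. In recovery 6 libraries ran from 137 to 252 CPM and Recovery 4 reached 1100 CPM. The recovery difference from control was −0.38 ± 0.38 (adjusted p = 0.671) and −0.96 without Recovery 4 (adjusted p = 0.132).

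Fkbp5, the receptor's co-chaperone, had 1 library far above the rest in each of the 3 disease groups. In early disease 6 libraries ran from 83.3 to 122 CPM and EarlyDisease 6 was at 450 CPM. In late disease 6 ran from 58.2 to 136 CPM and LateDisease 6 was at 920 CPM. In recovery 6 ran from 91.3 to 250 CPM and Recovery 4 was at 740 CPM. Controls ran from 66.3 to 359 CPM with a median of 182 CPM. Each group's other libraries overlapped the controls. No comparison between groups passed the test. The early difference was −0.52 ± 0.46 (adjusted p = 0.69) and −0.92 without EarlyDisease 6, and against the controls of shared dates it turned to 0.17. The recovery difference was 0.22 ± 0.44 (adjusted p = 0.858) and −0.17 without Recovery 4. The described late difference was −0.20 ± 0.47 with all libraries and −1.12 without LateDisease 6.

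Ddit4, the mTORC1 inhibitor, had the widest range, from 1.62 CPM in Control 11 to 201 CPM in Recovery 4. In late disease 6 libraries ran from 2.25 to 22.1 CPM and LateDisease 6 was at 107 CPM. In recovery 6 ran from 4.66 to 13.7 CPM. Early disease ran from 3.64 to 58.2 CPM and controls from 1.62 to 74.3 CPM, so that the disease groups overlapped the controls. Neither the early difference (−0.73 ± 0.78, adjusted p = 0.758) nor the recovery difference (−0.13 ± 0.82, adjusted p = 0.964) passed the test. The early difference was −1.65 without EarlyDisease 8, and 0.17 against rNLS8 controls alone. The recovery difference was −1.71 without Recovery 4. The described late difference was −1.03 ± 0.88 and −2.33 without LateDisease 6.

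Sgk1, the kinase with the palindrome before 1 of its starts, did not follow Tsc22d3 in the late library that stood apart. It was at 601 CPM in LateDisease 6, the lowest of the late group, whose other libraries ran from 687 to 962 CPM. Controls ran from 768 to 1558 CPM with a median of 1105 CPM, early disease from 542 to 1097 CPM with a median of 754 CPM, and recovery from 778 to 1328 CPM with a median of 920 CPM. The groups overlapped, and all 7 early libraries lay below the control median. The early difference of −0.46 ± 0.13 had an unadjusted p of 0.00139 and an adjusted p of 0.142 (edgeR). In early disease 1 gene of 13501 (0.00741%) was called, and 12.6% had an unadjusted p under 0.05, a group that 2 of these 6 genes, Sgk1 and Tsc22d3, belonged to. DESeq2 called the early difference of Sgk1 (−0.46, adjusted p = 0.0443). With the date code as a term it was −0.09, and against controls of shared dates, which ran from 801 to 1004 CPM, it was −0.17. The described late difference was −0.51 ± 0.13, and −0.11 with the date code as a term. The recovery difference of −0.19 ± 0.13 did not pass the test (adjusted p = 0.495), and it was −0.30 without Recovery 4.

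Errfi1, the EGF receptor inhibitor, was the gene whose late difference pointed upward. Late libraries ran from 27.8 to 111 CPM with a median of 50.1 CPM, against 25.5 to 70.0 CPM and a median of 49.8 CPM in controls. The described late difference of 0.22 ± 0.20 became −0.06 without LateDisease 3, which was at 111 CPM. Recovery ran from 19.8 to 48.9 CPM with a median of 29.8 CPM, and all 7 libraries lay below the control median. The recovery difference of −0.61 ± 0.21 had an adjusted p of 0.095 and did not pass the test. An antisense gene, 1700045H11Rik, overlaps Errfi1 and the libraries do not mark the strand. That gene was at 0 counts in every library.

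**Figure D2:**
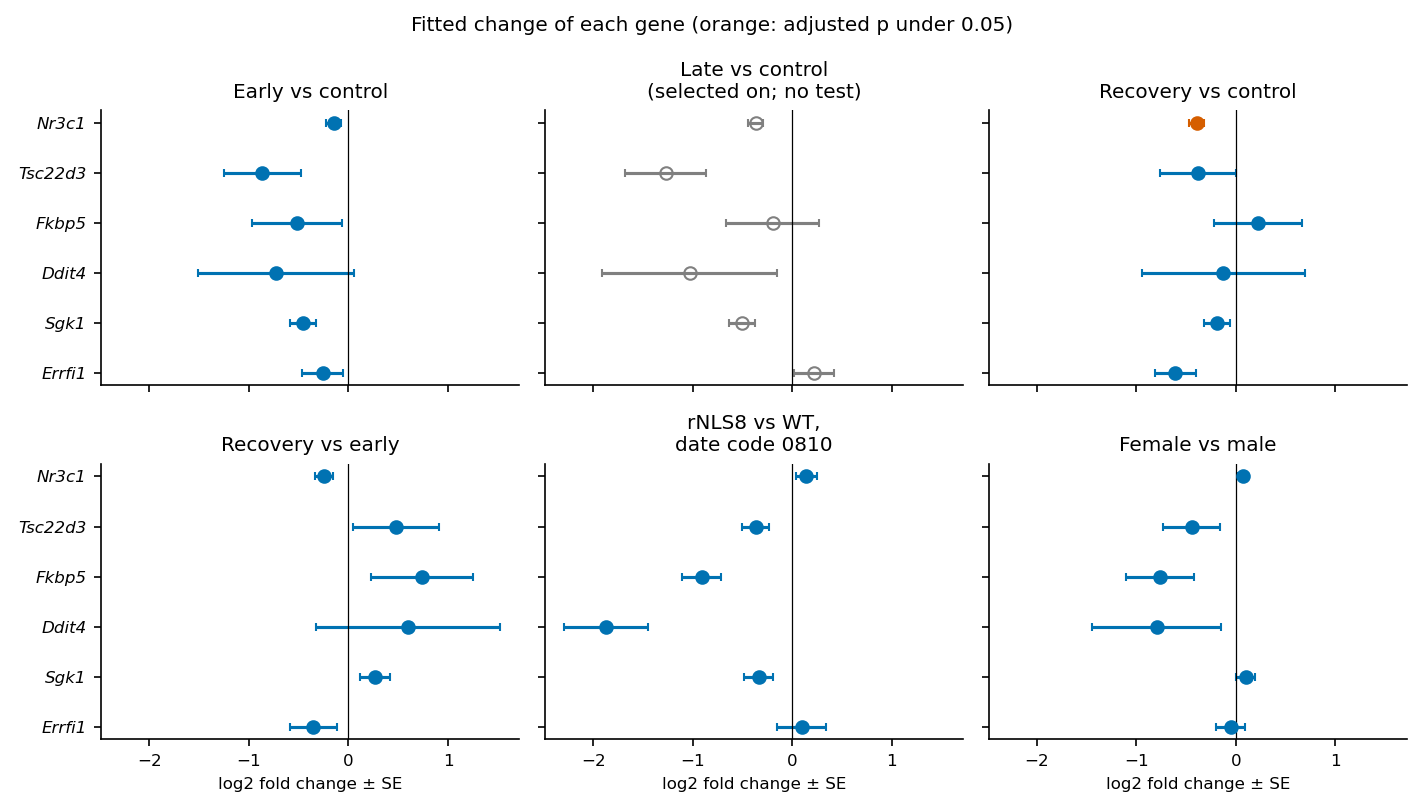
Fitted log2 fold change with its SE for each of the 6 genes in 6 comparisons, with the late comparison in open grey symbols because the set was selected on it. Only Nr3c1 in recovery passed the test (−0.39, orange). SEs of Tsc22d3, Fkbp5 and Ddit4 exceed those of Nr3c1 in every panel.

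Recovery against early disease gave no call among the 6 genes, in a comparison with 0.793% of genes called. Only Nr3c1 had an unadjusted p under 0.05, as did 10.9% of all genes. Tsc22d3 differed by 0.48 ± 0.43 (adjusted p = 0.769) with Recovery 4 and by −0.11 without it. Females and males, 19 and 16 libraries by the labels, did not differ in a way that passed the test for any of the 6 genes, where 0.0593% of genes were called. Fkbp5 was the 1 gene with an unadjusted p under 0.05 (−0.76 ± 0.34 in females, p = 0.0305, adjusted p = 0.938), as were 5.02% of all genes, and its difference was −0.45 without LateDisease 6.

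Within each group, Tsc22d3, Ddit4 and Fkbp5 rose and fell together from library to library, while no relation of Nr3c1 with them passed the test. After each group's mean was subtracted from log2(CPM + 1), Tsc22d3 and Ddit4 had a Pearson r of 0.88 and a Spearman rho of 0.91 over 35 libraries. Both had a permutation p of 1e-05, the smallest that 100000 permutations within groups can give (adjusted p = 5e-05 and 7.5e-05 over 15 pairs). Tsc22d3 and Fkbp5 had r = 0.86 and rho = 0.81 (permutation p = 1e-05 for both, adjusted p = 5e-05 and 7.5e-05). Fkbp5 and Ddit4 had r = 0.81 and rho = 0.74 (permutation p = 1e-05 and 2e-05, adjusted p = 5e-05 and 0.0001). The 2 libraries farthest out in Tsc22d3 were LateDisease 6 and Recovery 4. Without them r was 0.83 for Tsc22d3 with Ddit4, 0.74 for Tsc22d3 with Fkbp5 and 0.71 for Fkbp5 with Ddit4.

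The relation was also present within date codes. For Tsc22d3 and Ddit4, r was 0.98 in 0803, 0.90 in 0810, 0.89 in 1019 and 0.79 in 1102. For Tsc22d3 and Fkbp5 it ran from 0.67 in 0810 to 0.82 in 0803. Code 0803 is the recovery group with Recovery 4 in it, and no r within a code was computed without that library. No r was computed for any other whole group. No r was computed for date code 1130, whose 5 libraries were under the minimum of 6. Tsc22d3 and Sgk1 had r = 0.31 and rho = 0.34 (permutation p = 0.0505 and 0.0465, adjusted p = 0.152 and 0.139), with r = 0.45 without the same 2 libraries. Within date codes that pair ran from 0.26 in 1102 to 0.97 in 0803. Nr3c1 and Tsc22d3 had r = −0.08 and rho = −0.13 (permutation p = 0.656 and 0.484, adjusted p = 0.757 and 0.66), and r = −0.25 without Control 11 and Control 5, the 2 farthest in Nr3c1. Within date codes it ran from −0.27 to 0.43. Nr3c1 had r = −0.10 with Fkbp5 and −0.09 with Ddit4 (permutation p = 0.572 and 0.611, adjusted p = 0.757 for both). Without Control 11 and Control 5 these were −0.33 and −0.38. Within date codes Nr3c1 and Fkbp5 ran from −0.65 in 0810 to 0.30 in 1019, and Nr3c1 and Ddit4 from −0.41 in 0803 to 0.39 in 1019. Spearman's rho was −0.19 and −0.21 for the 2 pairs (permutation p = 0.297 and 0.259, adjusted p = 0.496 and 0.485). Errfi1 and Tsc22d3 had r = −0.20 and rho = −0.07 (permutation p = 0.349 and 0.702, adjusted p = 0.562 and 0.81), with r = −0.07 without LateDisease 6 and Recovery 4, and from −0.34 to 0.32 within date codes. The other 7 pairs had adjusted p-values of 0.058 or more.

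**Figure D3:**
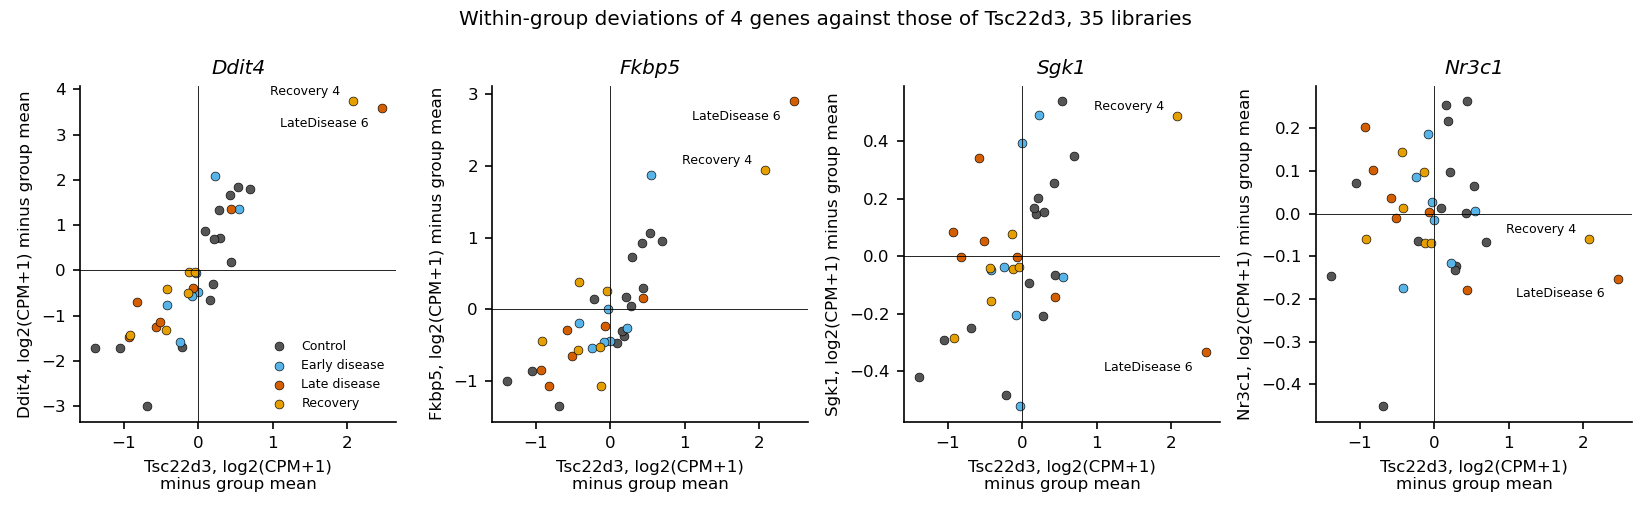
Deviation of log2(CPM + 1) from the group mean in each of 35 libraries, Tsc22d3 on the horizontal axis and Ddit4, Fkbp5, Sgk1 or Nr3c1 on the vertical axis, coloured by group. Ddit4 (r = 0.88) and Fkbp5 (r = 0.86) climb with Tsc22d3, Sgk1 (r = 0.31) does so weakly with LateDisease 6 opposite to the trend, and Nr3c1 (r = −0.08) shows no clear trend.

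Likeness to Tsc22d3 was ranked among 9607 other tested genes with a mean of at least 5 CPM. After subtracting group means, the 5 most like were Ddit4 (r = 0.88), Zbtb16 (0.87), Fkbp5 (0.86), Chka (0.86) and Abhd15 (0.86). Zbtb16, a zinc finger gene known to be induced by glucocorticoids, was at 78.0 CPM in LateDisease 6 and 43.8 CPM in Recovery 4, against a median of 0.717 CPM in the 33 other libraries. Chka, which encodes choline kinase alpha, was at 271 and 130 CPM in those 2 libraries against a median of 55.2 CPM. Abhd15, a hydrolase-like gene, was at 386 and 305 CPM against 150 CPM. Without subtracting group means, the 5 most like genes over 35 libraries were Cebpb (r = 0.86), Ddit4 (0.85), Rcsd1 (0.85), Dirc2 (0.80) and Fkbp5 (0.78). Cebpb encodes a transcription factor that glucocorticoids are known to induce. Nr3c1 ranked 5722 of 9607 after subtracting group means. These likenesses are descriptions that include LateDisease 6 and Recovery 4, and no ranking was made without them. The points share 1 way of sorting and 1 library protocol, but whether the mice were sorted together is not stated.

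The control libraries themselves differed in the targets by arm. At date code 0810, the 3 WT mice had Fkbp5 at 324, 330 and 359 CPM and the 6 rNLS8 mice on doxycycline had 132 to 283 CPM with a median of 190 CPM. The WT mice had Ddit4 at 65.3, 71.9 and 74.3 CPM and the rNLS8 mice 5.49 to 33.3 CPM with a median of 19.4 CPM. Neither gene's values overlapped between the 2 arms, and Sgk1 did not overlap either, at 1280 to 1558 CPM against 768 to 1233 CPM. Thus 3 of the 6 genes lay lower in every rNLS8 library, as did 1.26% of all tested genes. These controls belong to the contrast that chose the set, so neither this count nor the fit of them is independent of that choice.

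In the fit of those 9 libraries, Ddit4 differed by −1.87 ± 0.42 (unadjusted p = 0.000982, adjusted p = 0.702, edgeR) and Fkbp5 by −0.91 ± 0.19 (unadjusted p = 0.000643, adjusted p = 0.641). Neither passed the test, and 0.00772% of 12958 genes were called. Tsc22d3 (−0.37 ± 0.14, unadjusted p = 0.0217) and Sgk1 (−0.34 ± 0.15, unadjusted p = 0.0396) also lay under an unadjusted 0.05, making 4 of the 6 genes, against 3.92% of all genes. Without Control 3 the Tsc22d3 difference was −0.22. DESeq2 called Ddit4 (−1.87, adjusted p = 0.00582) and Fkbp5 (−0.90, adjusted p = 0.00357). Nr3c1 differed by 0.14 ± 0.11 (adjusted p = 1). These WT mice had been off doxycycline for 6 weeks and back on it for 1 week, while the rNLS8 mice had stayed on it, so genotype and diet history cannot be told apart.

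WT mice also differed with date code and diet. The 5 WT controls of the other codes had Tsc22d3 at 145 to 464 CPM against 514 to 620 CPM in the 3 of code 0810. Fkbp5 ran from 66.3 to 176 CPM, Ddit4 from 1.62 to 51.9 CPM and Sgk1 from 801 to 1004 CPM, each without overlap with those 3 mice. So 4 of the 6 genes were lower in every WT control of the other codes, as were 3.56% of tested genes. This count also uses controls of the contrast that chose the set, for a fall of Tsc22d3, and is not independent of it. Nr3c1 overlapped, at 168 to 242 CPM against 219 to 240 CPM. Within code 1019, Controls 12 and 13 had Ddit4 at 37.4 and 51.9 CPM and Controls 10 and 11 had 5.37 and 1.62 CPM. Controls 12 and 13 were labelled female and Controls 10 and 11 male.

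**Figure D4:**
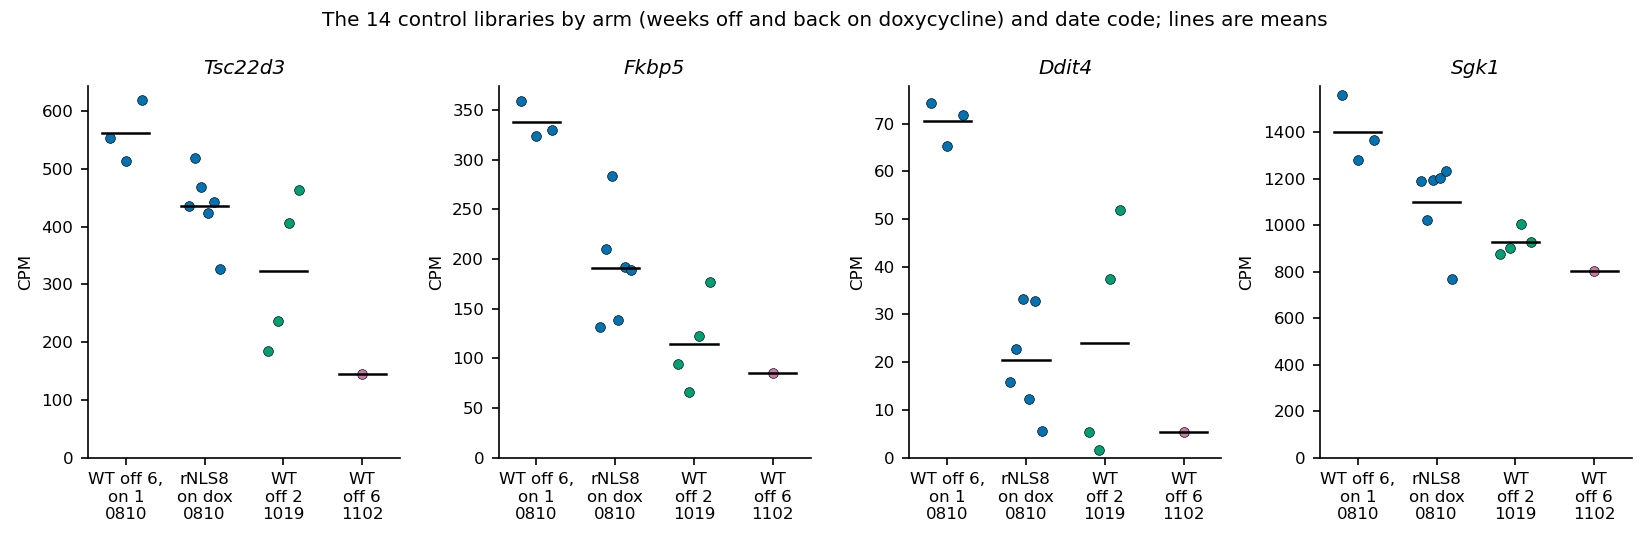
CPM of Tsc22d3, Fkbp5, Ddit4 and Sgk1 in the 14 control libraries by genotype, weeks off and back on doxycycline, and date code; lines are arm means and axes start at 0. The 3 WT mice of date code 0810 are above all other controls for Fkbp5, Ddit4 and Sgk1, and above all other WT controls for Tsc22d3.

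Genes of the receptor's own machinery (hormone-converting enzymes, chaperones and cofactors, 26 of 28 tested) changed in late disease in both directions. In that comparison 15.4% of all genes were called. Of the 26, 5 rose and 5 fell, and the median was 0.06 against 0.02 for all genes. Hspa8, a constitutive chaperone of the receptor cycle, averaged 1032 ± 224 CPM in controls and 673 ± 234 CPM in late disease (SD), a fall of 0.67 on the log2 scale (SE 0.19, adjusted p = 0.013, edgeR). Fkbp4, the co-chaperone FKBP52 that works opposite to FKBP51, fell by 0.50 on the log2 scale (SE 0.12, adjusted p = 0.00334). Ppp5c, a phosphatase bound to the receptor complex, rose by 0.47 ± 0.15 (adjusted p = 0.0252), a call that ended without LateDisease 1, 3 or 6 (0.40 and adjusted p = 0.0788 without LateDisease 6). Stub1, a ubiquitin ligase of chaperone clients, rose by 0.46 ± 0.10 (adjusted p = 0.00151). Without LateDisease 6, 2 rose and 4 fell, where 1376 of all genes were called. Against the 5 controls of shared dates none of the 26 was called (edgeR, with 5 at an unadjusted p under 0.05), where 191 of all genes were called.

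In recovery, 2 of the 26 rose and 1 fell, where 3.98% of all genes were called. Without Recovery 4, 1 rose and 1 fell, where 570 of all genes were called. None was called by edgeR with the covariate for TPM outside the table (4 at an unadjusted p under 0.05). Hsd11b1, the enzyme that regenerates active glucocorticoid, rose by 3.76 ± 0.88 against control (adjusted p = 0.00937). It was at 0.118 to 6.33 CPM in recovery and 0 to 0.955 CPM in controls, a low level in both, and leaving out Recovery 3 ended the call (2.98, adjusted p = 0.0672). Against early disease it rose by 5.86 ± 1.31 (adjusted p = 0.0206), a call that ended without Recovery 3 or without EarlyDisease 5, 6 or 8 (adjusted p up to 0.0613). Hsd11b1 is also expressed in myeloid cells of the blood, and the neutrophil and monocyte sums above rose in the same libraries. Their part in the result was not tested. Nrip1, a corepressor of nuclear receptors, fell by 0.39 (SE 0.11, adjusted p = 0.0373), and Stub1 rose by 0.33 ± 0.10 (adjusted p = 0.0374). Each of these calls ended without any 1 of several libraries. For Nrip1 they were Recovery 2, 3, 5, 7 and 9 and Controls 1, 2, 3, 5, 6 and 8 (adjusted p up to 0.106). For Stub1 they were Recovery 4, 5, 7, 8 and 9 and Controls 1, 2, 5 and 6 (adjusted p up to 0.11).

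Of 39 other genes known to be induced by glucocorticoids, 34 were tested. In late disease 10 rose and 4 fell, where 15.4% of all genes were called, with a median of 0.59 against 0.02 for all genes. LateDisease 6 had the highest level of the late group for 24 of the 34 and for 26% of all tested genes. Il1r2, the decoy receptor for interleukin-1, was at 951 CPM in that library and at 0.478 to 2.09 CPM in the other 6 (7.97 ± 1.38 with it, adjusted p = 0.000249, and 1.76 without it, adjusted p = 0.183). Mt2, a metallothionein, was at 40.1 CPM there and at most 2.09 CPM in the others (3.95 ± 0.78, and 1.22 without it, adjusted p = 0.223). Klf9, a Krüppel-like factor, was at 134 CPM there and at most 5.60 CPM in the others (3.25 ± 0.98, and 0.24 without it, adjusted p = 0.879). Cxcr4, a chemokine receptor, gave 3.43 ± 0.73, and 1.92 without that library (adjusted p = 0.0596).

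Without LateDisease 6, 3 of the 10 genes that rose were still called, Mt1, Arrdc2 and Tnfaip3, and the list's median was 0.02. Over all genes 1376 were then called, against 2080 with that library. All 4 genes that fell, Rhob, Cebpd, Txnip and Sesn1, were still called, and 3 more, Cebpb, Foxo1 and Nfil3, were then called lower. These 10 names were given after their values were seen. Rhob, a small GTPase gene, was at 209 to 256 CPM in those 6 late libraries and 151 to 535 CPM in controls. Cebpd, a transcription factor gene, was at 40.7 to 60.7 CPM and 63.0 to 113 CPM. The share of all genes that separate between these sets was not computed. With all 7 late libraries, 0.193% of tested genes lay below every control. That is another set of libraries, so it is not the share to set beside Cebpd in these 6. Against controls of shared dates, with all 7 late libraries, none of the 34 was called higher and 1 was called lower. In that fit 191 of all genes were called.

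**Figure D5:**
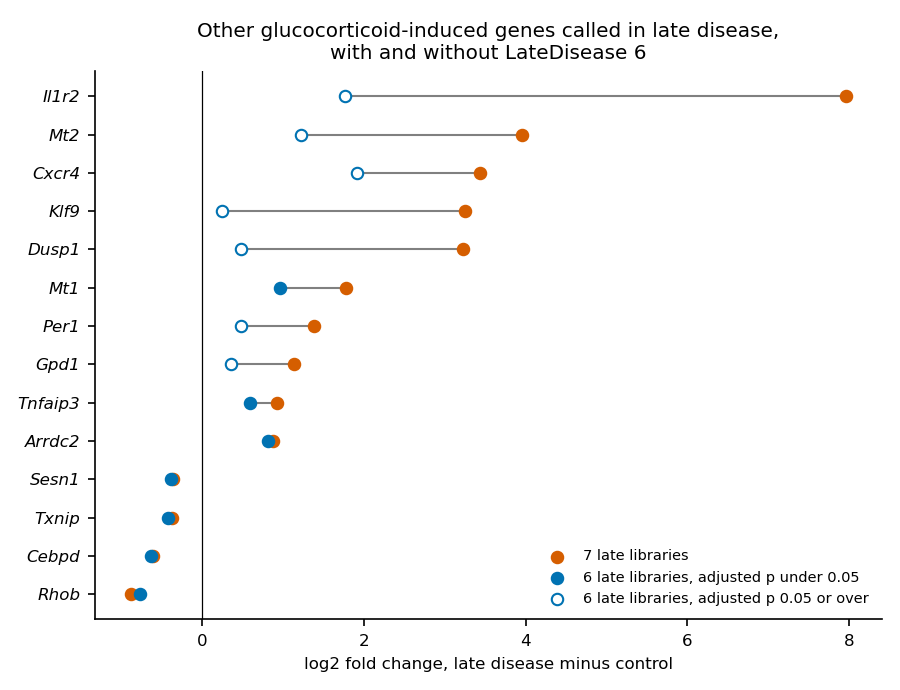
Log2 fold change between late disease and control for the 14 other glucocorticoid-induced genes called with 7 late libraries (orange), and the same without LateDisease 6 (blue, filled where the adjusted p is under 0.05). Il1r2 moves from 7.97 to 1.76 and Klf9 from 3.25 to 0.24, while the 4 lower genes hardly move.

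In recovery 3 of the 34 rose and 1 fell, where 3.98% of all genes were called. With the covariate for TPM outside the table, only 1 gene rose and none fell, and without Recovery 4, 3 rose and 3 fell. Lcn2, which encodes lipocalin 2, rose by 6.08 ± 1.04 (adjusted p = 0.000314), and Anxa1, which encodes annexin A1, by 5.30 ± 1.09 (adjusted p = 0.00273, and 8.30 without Control 6). Both are also abundant in neutrophils, whose markers rose in the same libraries, and their part was not tested. Cxcr4 rose by 3.01 ± 0.70 (adjusted p = 0.00921). Txnip, which encodes a thioredoxin inhibitor, fell by 0.36 (SE 0.09, adjusted p = 0.0197), a call that ended without Recovery 2 or Recovery 5 (adjusted p up to 0.0758). Recovery 4, with Tsc22d3 at 1100 CPM, had the highest level of the recovery group for 19 of the 34 and for 16.9% of all genes. Its Dusp1, a phosphatase gene, was at 49.7 CPM against 10.5 ± 2.74 CPM in the other 6, and its Klf9 at 17.4 CPM against 0.567 to 2.86 CPM.

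Inflammatory genes known to be restrained by the receptor (15 of 17 tested) had more calls upward than downward in late disease. Of the 15, 7 rose, 2 fell and 6 were not called, where 15.4% of all genes were called in either direction, and their median was 1.60 against 0.02 for all genes. Cxcl10, an interferon-induced chemokine, rose by 3.00 ± 0.60 (adjusted p = 0.0011) and Ccl5 by 2.92 ± 0.40 (adjusted p = 8.45e-06). Ccl3 rose by 2.37 ± 0.32 (adjusted p = 8.45e-06), and Ccl2 by 2.35 ± 0.47 (adjusted p = 0.00112). LateDisease 6 had the highest level of its group for 2 of the 15 and for 26% of all tested genes. Without it 6 rose and 2 fell, where 1376 of all genes were called. Against controls of shared dates 3 rose and none fell, where 191 of all genes were called. With the date code as a term none of the 13 then tested was called by edgeR (7 at an unadjusted p under 0.05), with a median of 0.23. Monocyte markers moved in the same libraries: their sum was 34.7 to 190 CPM in late disease and 6.54 to 27.8 CPM in controls, without overlap, and 3 of 9 tested, among them Fn1 and Itgal, were higher. In LateDisease 6, Ccl3 was at 27.7 CPM, below the 39.1 to 126 CPM of the other late libraries. The late difference of Ccl5 was 2.92 with that library and 2.88 without it. The part of monocytes in the result was not tested. In recovery 4 of the 15 rose and none fell, where 3.98% of all genes were called, and 3 rose with the covariate for TPM outside the table. Ccl3 (2.44 ± 0.32, adjusted p = 9.58e-06), Ccl4 (2.14 ± 0.32, adjusted p = 4.3e-05) and Ccl5 (2.28 ± 0.39, adjusted p = 0.000297) rose, as did Mmp9, a gelatinase also carried by neutrophils (4.09 ± 1.03, adjusted p = 0.0164, and 3.27 without Recovery 3, adjusted p = 0.127; the call also ended without Recovery 9). In early disease no gene of the 3 lists was called by edgeR. An unadjusted p under 0.05 was reached by 4 of 26 machinery genes, 2 of 34 induced targets and 6 of these 15 genes, against 12.6% of all genes, and DESeq2 called 1, 0 and 0.

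Near relatives of the 6 genes (11, of which 7 were tested) gave 2 calls in late disease, Sgk3 and the Fkbp4 described above. In recovery 1 was called, Sgk3. Of all tested genes, 15.4% were called in late disease and 3.98% in recovery. Sgk3, a kinase related to Sgk1, fell from 115 ± 18.8 CPM in controls to 80.1 ± 6.28 CPM in late disease (−0.52 ± 0.09, adjusted p = 0.000216) and 83.0 ± 8.48 CPM in recovery (−0.47 ± 0.09, adjusted p = 0.0013). Nr3c2, the mineralocorticoid receptor that also binds corticosterone, ran from 6.02 to 21.5 CPM over the libraries other than LateDisease 6 and Recovery 4 and was not called in any comparison. None of the 7 relatives was called by edgeR in late disease against controls of shared dates, with the date code as a term or with the covariate for TPM outside the table, nor in recovery with that covariate, so both Sgk3 calls ended there. In these 4 fits 2, 2, 1 and 2 of the 7 had an unadjusted p under 0.05, as did 2354, 1186, 2016 and 1875 of all genes.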

How the data were processed

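Libraries were made with SMART-Seq cDNA and NexteraXT kits, which do not mark the strand, per the labels' protocols. The authors deposited expected counts per gene, estimated fragments that need not be whole, and TPM for the same genes. Per the submitters' processing notes the tools included RSEM and DESeq2 and the build was mm10. No tool version is given in the sources used here. Per the file headers, a deposited design table gave date codes, sexes and alignment counts. RSEM shares reads among similar copies by estimation.

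The 6 genes and all gene lists were chosen with earlier results of these data known. Expected counts were rounded and tested with edgeR 4.0.16 (quasi-likelihood F test, TMM, low-count filter by group, group and sex as terms, 35 libraries, Benjamini-Hochberg adjusted p under 0.05 over all 13501 tested genes). SEs derive from the F statistic, and CPM from TMM-scaled library sizes. A separate fit took the 9 controls of date code 0810. Correlations used log2(CPM + 1). Alternatives were DESeq2 1.42.0, limma 3.58.1 on log2(TPM + 1) or log2(TPM + 0.1) with a TPM of at least 1 in 6 libraries, other scalings, filters, covariates, control sets and leaving out each library. Scripts were tested on simulated data. Genes were named by rule: the 6 genes, up to 4 called genes per list and comparison by size, and the 5 most like Tsc22d3. The sex labels of 2 controls differ from the design table, whose sexes were an alternative. Lists of other cells were neutrophil, monocyte, lymphocyte, border macrophage, astrocyte, oligodendrocyte, endothelial, neuron and erythroid markers. Of these, 10 of 11 tested neutrophil, 8 of 9 monocyte, 1 of 8 border macrophage and 1 of 2 endothelial markers were higher in recovery, and 1, 3, 1 and 1 in late disease. None of the other lists had a call in either, and no list had one in early disease. Libraries of a group differed by chi-square values of 19.6 or more per gene (154 pairs, 20 or more counts), far above counting noise.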

Additional observations from a re-analysis of the deposited data

Results flagged for a closer look

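Libraries far from the rest of their group were sought among the 6 genes in early disease, late disease, recovery and the control arms of 4 or more, 30 gene and group combinations, by the gap to the nearest library over the group's range. For independent and normally spread values, chance would give about 1 in 20. CPM were used without logs, and whether they are normally spread was not checked. Tsc22d3, Fkbp5 and Ddit4 also varied together, so the number found cannot be set against that rate. There were 8, written here with the range of the other libraries of the group. In late disease, Tsc22d3 in LateDisease 6 was at 724 CPM (others 68.3 to 177 CPM), Fkbp5 at 920 CPM (58.2 to 136 CPM) and Ddit4 at 107 CPM (2.25 to 22.1 CPM). In recovery, Recovery 4 had Tsc22d3 at 1100 CPM (137 to 252 CPM), Fkbp5 at 740 CPM (91.3 to 250 CPM), Sgk1 at 1328 CPM (778 to 999 CPM) and Ddit4 at 201 CPM (4.66 to 13.7 CPM). In early disease, Fkbp5 in EarlyDisease 6 was at 450 CPM (83.3 to 122 CPM). Nr3c1 and Errfi1 had none.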

How the results depend on the processing

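The call on Nr3c1 in recovery held under each alternative run except the covariate for TPM outside the table, where it was lost (−0.29, adjusted p = 0.0583). The described fall of Tsc22d3 in late disease kept its direction under each alternative run, and leaving out single libraries gave −2.01 to −1.12. The cause of the changes below was not tested, except that control subsets use fewer samples. Totals of 13.9 M counts or more leave genes at few counts, such as Hsd11b1 and Mt2, the least certain.

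Counts of called genes moved most for early disease, where edgeR called 1. DESeq2 called 136, rNLS8 controls alone gave 735, and limma gave 1390 (pseudocount 1) and 1354 (0.1), on scales where the median of all genes moved by 0.22 and 0.26. The count was 0 by edgeR with no filter, the date code as a term, controls of shared dates, WT controls alone or the covariate, with 2992, 169, 413, 831 and 335 genes at an unadjusted p under 0.05. Leaving out single libraries gave 0 to 77, the latter without Control 13. For late disease (2080) the date term gave 4, controls of shared dates 191, WT controls 1009 and the covariate 252, and single libraries 1327 (without LateDisease 3; 1376 without LateDisease 6) to 2265. For recovery (537) WT controls gave 293 and the covariate 253, and single libraries 329 (without Recovery 9; 341 without Recovery 2) to 747. For recovery against early disease (107) DESeq2 gave 222 and no filter 162, and single libraries 38 (without EarlyDisease 5) to 124, with 41 without EarlyDisease 6, 71 without EarlyDisease 8, and 61, 54, 63 and 56 without Recovery 2, 3, 7 and 9. For females against males (8) DESeq2 gave 21. For the 0810 controls (1) DESeq2 gave 40 and no filter 56, with Ddit4 (adjusted p = 3.28e-06) and Fkbp5 (0.000427) called, and single libraries gave 1 to 6, the latter without Control 2.

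Directions that turned belonged to differences that did not pass the test. In early disease, Nr3c1 was 0.077 and 0.078 under the limma fits, below the shift of all genes, Fkbp5 was 0.17 against controls of shared dates and Ddit4 0.17 against rNLS8 controls. In recovery, Ddit4 was 0.25 without the sex term, 0.48 against rNLS8 controls and −1.71 to 0.066 without single libraries, and Fkbp5 −0.17 to 0.36. For recovery against early disease, Ddit4 was −0.041 and −0.052 under limma and −1.005 to 1.37 without single libraries, and Tsc22d3 −0.11 to 0.62. For females against males, Ddit4 was 0.020 under limma (0.1) and −1.11 to 0.027 without single libraries, and Errfi1 was 0.010 with the table's sexes and −0.16 to 0.0015 without single libraries. For the 0810 controls, Errfi1 ran from −0.044 to 0.24.

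Library numbers are shared between groups by name only: of 37 same-numbered pairs, 3 had a correlation of deviations above 0.1 (−0.27 to 0.17), and 1 of 30 libraries correlated best with its own number. A fit with the number as a replicate block called 613 genes in early disease, 912 in recovery and 40 between recovery and early disease. It called Nr3c1 (−0.23, adjusted p = 0.0497) and Sgk1 (−0.63, adjusted p = 0.0169) in early disease. Controls 10 to 14 share their numbers with no other library, so this fit in effect left them out of the comparisons with control. Those then rested on Controls 1 to 9, all of date code 0810, which no disease library had. Sgk1 averaged 1201 CPM in the controls of 0810 and 902 CPM in the other controls.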
